A study of Mus musculus with 2 samples.

Results

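The transcription factor gene *Trp53* and 9 of its target genes (*Mdm2*, *Ccng1*, *Bax*, *Trp53inp1*, *Zmat3*, *Phlda3*, *Aen*, *Bbc3* and *Pmaip1*) were read in cultured primary mouse brain pericytes (PCs). The 10 genes were chosen by symbol, and all were found among the 31053 genes listed for each library. Primary PCs from C57BL/6N mice had been grown in culture to passage 5 (PC5) or passage 20 (PC20), and each passage gave 1 droplet library of single cells. Each isolation pooled the brains of 6 wild-type female mice aged 6 to 8 weeks, and neither culture was given a drug or a genotype change. The paper's methods describe separate isolations and the deposited description only 1, so passage and isolation cannot be told apart below. With 1 library per passage no test between passages was possible, and cells are not replicates of a passage.

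The p53 protein is held at low levels by MDM2, a ubiquitin ligase that marks it for degradation, and is stabilised by DNA damage and other stress. Stabilised p53 binds DNA and switches on genes for cell cycle arrest, repair and apoptosis, among them *Mdm2* itself, which closes a feedback loop. *Cdkn1a*, the gene of the cell cycle inhibitor p21, is the best known of these targets and serves here as the reference against which the 10 genes were read in single cells. Regulation of p53 acts mainly on the protein, which was not measured here.

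Cells with more than 1000 genes and less than 20% mitochondrial unique molecular identifiers (UMIs, tags of single captured RNA molecules) were used, which kept 9950 of 10629 barcodes in PC5 and 4749 of 4884 in PC20. Their UMIs totalled 223054273 in PC5 and 191122251 in PC20 (medians per cell of 21700 and 33424). Levels are UMIs summed over cells and scaled to 1000000 per library (CPM). Intervals are at the 95% level and cover counting error only. Of the markers that define PCs, *Pdgfrb* was at 44.6 CPM in PC5 and 5.43 in PC20, *Cspg4* at 5.55 and 0.0994, and *Anpep* at 1.93 and 3.00. *Rgs5* was counted 405 times in PC5 and 0 times in PC20, and *Abcc9* had 1 UMI in each library, so part of the PC marker set was at or near 0, above all in PC20. The endothelial gene *Pecam1* was at 0.542 and 0.110 CPM, and the immune genes *Cd48* and *Adgre1* and the oligodendrocyte gene *Mobp* had 0 UMIs in both. The libraries shared 20 cell barcodes, and leaving these out changed none of the calls given below.

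For shares of cells and all comparisons within a library, each cell was thinned to 10500 UMIs, which left 8847 PC5 cells and 4474 PC20 cells and dropped 1103 and 275 that were shallower. No cell type that lacks these genes was present, so the share of cells that free RNA alone would give was not measured here.

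In GRCm38 the genes lie at chr11:69580359-69591873 on the plus strand (*Trp53*), chr10:117688875-117710758 on the minus strand (*Mdm2*), chr11:40748552-40755311 on the minus strand (*Ccng1*), chr7:45461697-45466898 on the minus strand (*Bax*) and chr4:11156431-11174379 on the plus strand (*Trp53inp1*). Further members are at chr3:32334792-32366014 on the minus strand (*Zmat3*), chr1:135766119-135769136 on the plus strand (*Phlda3*), chr7:78895854-78911209 on the plus strand (*Aen*) and chr7:16308393-16318205 on the plus strand (*Bbc3*). All 10 are protein coding. *Bax* overlaps the gene model *Gm45808* on its own strand, to which 0 UMIs were assigned in both libraries.

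Promoter sequence of 7 of the 10 genes was at hand (RefSeq, GRCm38.p6, from 250 bases before to 50 after the start of transcription, 10 windows). p53 binds as a tetramer to a pair of 10-base elements. An exact match to the 10-base p53 consensus element, which reads the same on both strands, lay in at least 1 window of *Trp53*, *Mdm2*, *Ccng1*, *Bax* and *Aen*, and in none of *Phlda3* or *Bbc3*. Of all 32851 promoter windows, 8.36% held such a match. A pair of adjacent elements with at most 2 of 20 letters off was found in 0.798% of all windows and, among the 7 genes, in *Ccng1* only, and it was also found in the first promoter of *Cdkn1a*. The 250 bases before the start are shown for these genes, because their RNAs are compared cell by cell below, with capitals marking the pair of elements and, in *Cdkn1a*, a further single element.
*Ccng1*, chr11:40755287-40755536, minus strand: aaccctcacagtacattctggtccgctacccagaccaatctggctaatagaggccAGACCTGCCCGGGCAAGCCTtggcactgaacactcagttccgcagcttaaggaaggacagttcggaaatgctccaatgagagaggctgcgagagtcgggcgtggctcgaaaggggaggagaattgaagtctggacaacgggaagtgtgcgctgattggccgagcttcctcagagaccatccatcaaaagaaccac
*Cdkn1a*, chr17:29090729-29090978, plus strand: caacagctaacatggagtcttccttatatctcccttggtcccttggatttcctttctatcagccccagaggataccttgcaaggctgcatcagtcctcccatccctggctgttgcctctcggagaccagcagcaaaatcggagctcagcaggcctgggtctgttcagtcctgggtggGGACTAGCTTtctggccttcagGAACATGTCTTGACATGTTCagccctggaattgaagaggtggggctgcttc
Counted from the start of transcription, the paired element begins at -195 in *Ccng1* (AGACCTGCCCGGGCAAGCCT) and at -51 in *Cdkn1a* (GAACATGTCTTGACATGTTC), each with 1 letter off the consensus. The other *Cdkn1a* window (chr17:29093519-29093818), at a later start, held no match. UMIs were counted per gene, so which start gave the *Cdkn1a* RNA was not measured. These matches describe letters in the window and are not measurements of binding.

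Between the passages, *Trp53* RNA was nearly level while its targets differed in both directions. *Ccng1*, *Trp53inp1* and *Pmaip1* were higher in PC5 by more than a log2 ratio of 1, *Bbc3* was higher in PC20 by just over that size, and the other 6 lay between. A log2 ratio past 1 in favour of PC5 was reached by 3 of the 10 genes, against 17.9% of the 10504 genes expressed (a UMI in 10% or more of the cells of PC5 or PC20), and past 1 in favour of PC20 by 1 of the 10, against 19.1%. The median of the 10 genes was 0.33 and that of all expressed genes -0.03. Over 10 genes these shares and medians are no result about the group.

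**Figure D1:**
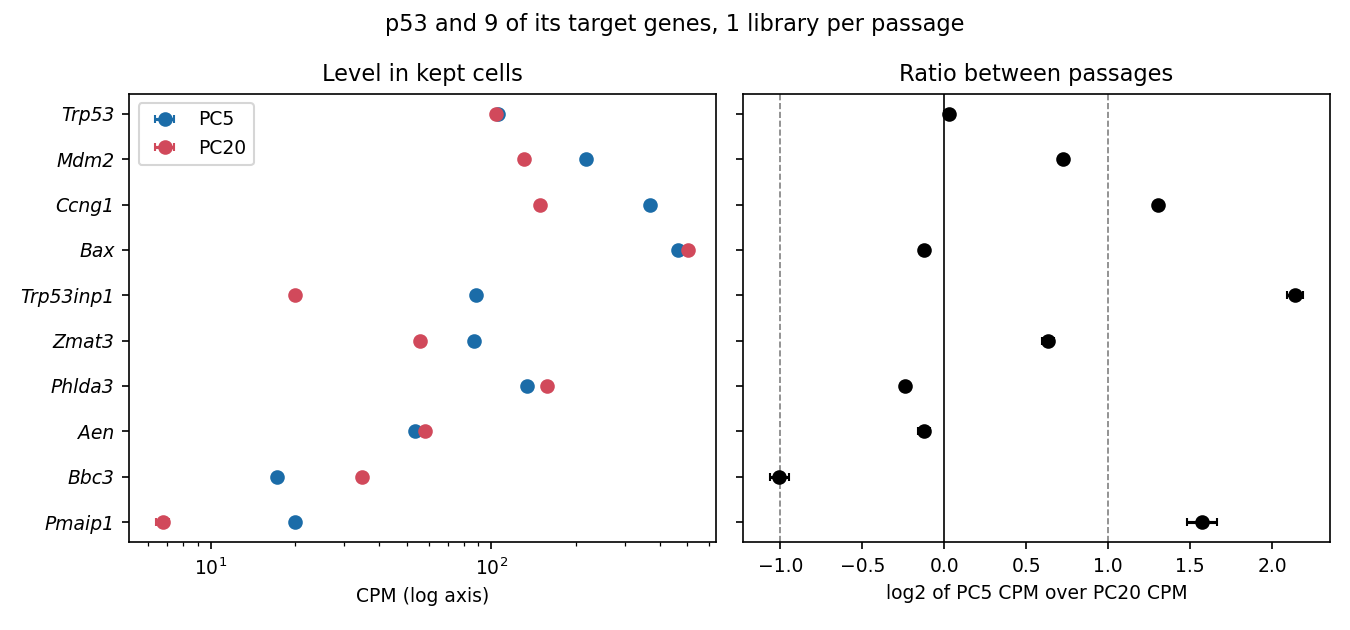
CPM of *Trp53* and its 9 target genes in PC5 and PC20 on a log axis, beside the log2 ratio of PC5 over PC20 with its 95% counting interval. *Trp53inp1* lies farthest towards PC5 (2.14) and *Bbc3* farthest towards PC20 (-1.01), with *Trp53* near 0.

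*Trp53* was at 106 CPM in PC5 (23673 UMIs) and 104 CPM in PC20 (19892 UMIs), for a log2 ratio of 0.03 (0.00 to 0.06). A *Trp53* UMI was seen in 63.7% of thinned PC5 cells and 62.8% of thinned PC20 cells. The sign of this small ratio depends on the processing, since it was -0.012 in thinned cells and -0.033 without the 5% of cells with most UMIs. The gene for p53 itself thus differed little between the libraries in either direction.

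The feedback genes were higher in PC5. *Mdm2* was at 218 CPM in PC5 (48548 UMIs) and 132 CPM in PC20 (25138 UMIs), for a log2 ratio of 0.73 (0.70 to 0.75), and was seen in 78.8% and 62.7% of thinned cells. *Ccng1* encodes cyclin G1, which recruits a phosphatase to MDM2. Its level was 368 CPM in PC5 and 149 CPM in PC20 (82136 and 28493 UMIs), for a log2 ratio of 1.30 (1.29 to 1.32), with a UMI in 95.1% and 69.6% of thinned cells.

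The genes of apoptosis did not share a direction. *Bax*, whose protein permeabilises the outer mitochondrial membrane, was at 462 CPM in PC5 and 504 in PC20, for a log2 ratio of -0.13 (-0.14 to -0.11), and was seen in 98.3% of thinned cells of either passage. *Bbc3* (PUMA), a BH3-only activator of BAX, was at 17.3 CPM in PC5 and 34.8 in PC20 (3861 and 6645 UMIs), for a log2 ratio of -1.01 (-1.06 to -0.95), seen in 15.8% and 28.5% of thinned cells. *Pmaip1* (NOXA), another BH3-only gene, went the other way, with 20.0 CPM in PC5 and 6.74 in PC20 (4465 and 1289 UMIs) and a log2 ratio of 1.57 (1.48 to 1.66), seen in 16.2% and 5.70%. So the 2 BH3-only genes were ordered oppositely, although *Bbc3* lies at the limit of 1 and drops inside it in cells without a UMI of the proliferation genes *Mki67* or *Top2a* (-0.90). *Aen*, a nuclease induced in apoptosis, was at 53.5 and 58.4 CPM with a log2 ratio of -0.13 (-0.16 to -0.09).

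The remaining targets act in stress signalling and RNA control. *Trp53inp1*, a stress-induced protein of the p53 response and of autophagy, had the largest ratio of the 10, with 88.2 CPM in PC5 and 20.1 in PC20 (19681 and 3832 UMIs) and a log2 ratio of 2.14 (2.09 to 2.19). It was seen in 52.3% of thinned PC5 cells and 16.1% of thinned PC20 cells. *Zmat3*, an RNA-binding zinc finger protein, was at 86.7 and 56.0 CPM, for a log2 ratio of 0.63 (0.60 to 0.67). *Phlda3*, which competes with AKT for membrane lipids and so represses it, was slightly higher in PC20, with 134 and 158 CPM and a log2 ratio of -0.24 (-0.26 to -0.22). For comparison, *Cdkn1a* was at 394 CPM in PC5 and 201 in PC20, for a log2 ratio of 0.97 (0.96 to 0.99).

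*Cdkn1a* also varied widely among the cells of each library, and the second question was which of the 10 genes followed it from cell to cell. Among thinned cells, 7.44% in PC5 and 34.0% in PC20 had 0 *Cdkn1a* UMIs, while 27.3% (2414 cells) and 8.02% (359 cells) had 6 or more. Between these ends most of the targets were higher in cells with more *Cdkn1a* in both passages, and *Trp53* was not. *Trp53inp1* and *Mdm2* had the largest ratios in both passages, followed by *Bbc3* in PC5 and by *Pmaip1* and *Phlda3* in PC20.

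**Figure D2:**
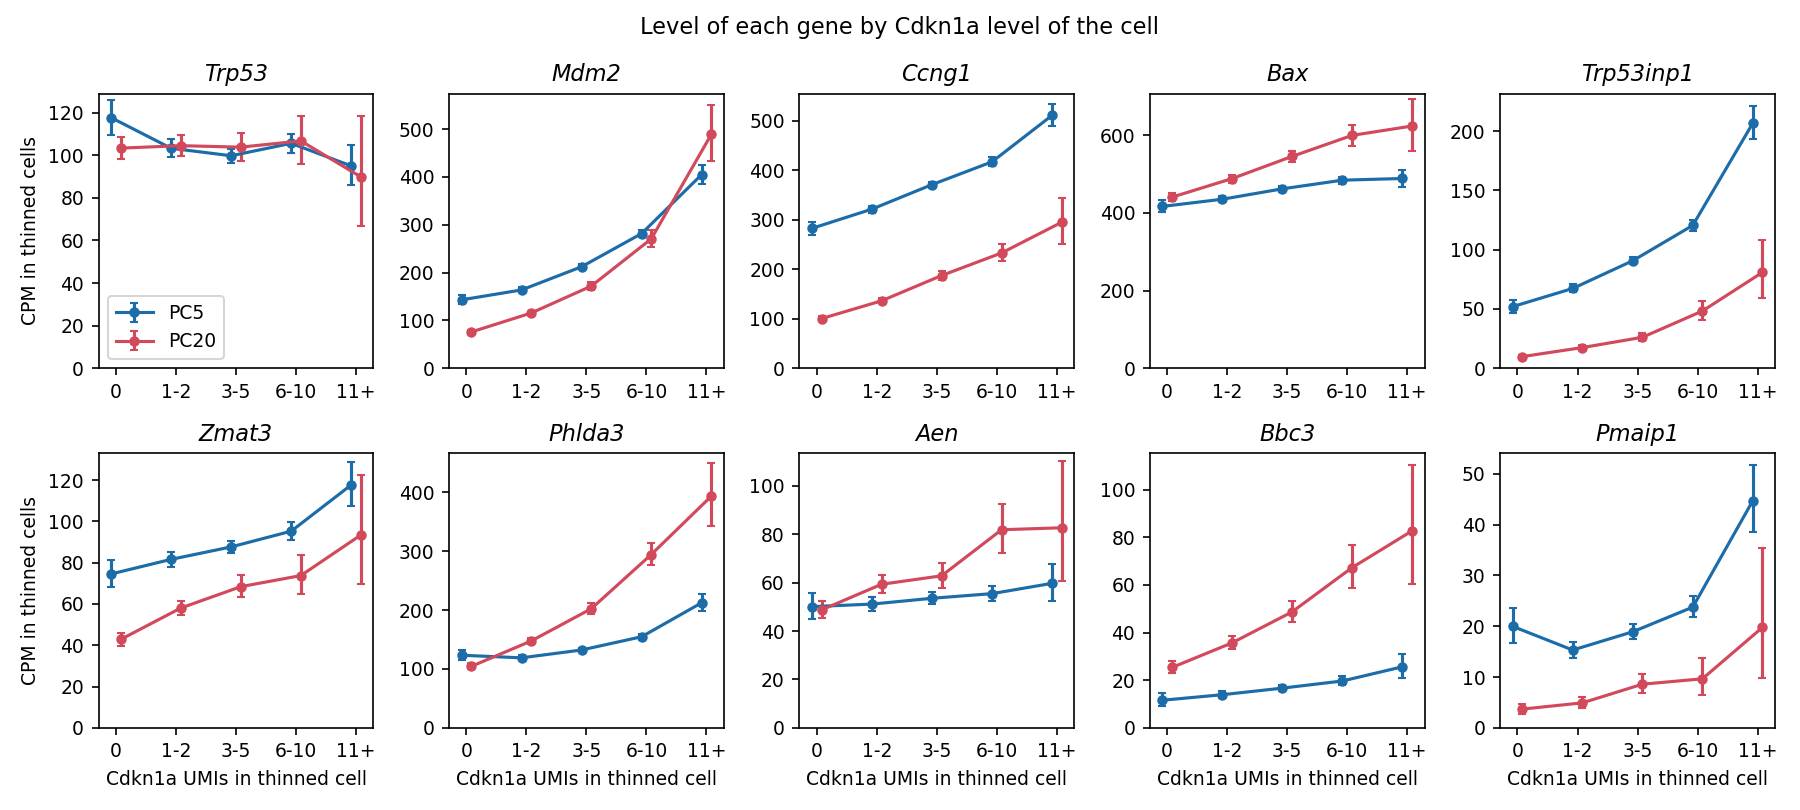
CPM of each of the 10 genes (linear axis from 0, 95% counting intervals, a scale of its own for each gene) in thinned cells with 0, 1 to 2, 3 to 5, 6 to 10 and 11 or more *Cdkn1a* UMIs, for PC5 and PC20. *Mdm2*, *Ccng1*, *Trp53inp1*, *Bax*, *Zmat3*, *Aen* and *Bbc3* are higher at each further level in both passages, in some steps within counting error. *Phlda3* and *Pmaip1* are so in PC20 only, whereas *Trp53* stays between 89.8 and 118 CPM.

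A log2 ratio past 0.5 between cells with 6 or more *Cdkn1a* UMIs and cells with 0 was found in PC5 for 4 of the 10 genes (*Mdm2*, *Ccng1*, *Trp53inp1* and *Bbc3*), against 4.02% of 9164 expressed genes, and for 0 of the 10 in the other direction, against 3.93%. In PC20 it was found for 8 of the 10, all but *Trp53* and *Bax*, against 9.40% of 9950 expressed genes, and for 0 in the other direction, against 6.13%. The median of the 10 genes was 0.43 in PC5 and 1.36 in PC20, beside -0.04 and 0.02 for all expressed genes. The PC5 count was 7 and not 4 with the high end set at 11 or more UMIs, and 5 without 2 cells rich in *Pmaip1*. The share of all expressed genes past 0.5 is not given for these 2 settings, so the larger counts have no yardstick. With cells split into 3 equal groups by *Cdkn1a*, *Ccng1* fell inside the limit in PC5 (0.45). *Bbc3* came close to it (0.53) with another random draw of the thinning. Whether the passages differ in these ratios was not tested.

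*Mdm2* was at 143 CPM in PC5 cells with 0 *Cdkn1a* UMIs and 302 in those with 6 or more, for a log2 ratio of 1.08 (0.98 to 1.17). In the former group, 2 cells rich in *Pmaip1* held 111 of the 988 *Mdm2* UMIs. Without them the level was 127 CPM and the log2 ratio 1.24 (1.14 to 1.35). In PC20, *Mdm2* was at 75.7 and 303 CPM, for a log2 ratio of 2.00 (1.88 to 2.12). Cells with 6 or more *Cdkn1a* UMIs therefore held like amounts of *Mdm2* in both passages, and the passages lay apart in cells with none. *Ccng1* was at 282 and 432 CPM in PC5, for a log2 ratio of 0.61 (0.54 to 0.68), and at 100 and 242 CPM in PC20, for a log2 ratio of 1.27 (1.15 to 1.39).

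*Trp53inp1* had the largest ratio of the 10 in both passages. It was at 52.0 and 135 CPM in PC5, for a log2 ratio of 1.37 (1.22 to 1.53), and at 9.82 and 53.1 CPM in PC20, for a log2 ratio of 2.43 (2.13 to 2.74). *Phlda3* was at 123 and 164 CPM in PC5, for a log2 ratio of 0.41 (0.31 to 0.52), but at 104 and 309 CPM in PC20, for a log2 ratio of 1.57 (1.46 to 1.68). *Phlda3* was thus nearly level across the lower *Cdkn1a* groups of PC5 and graded across those of PC20.

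Among the apoptosis genes, *Bbc3* was at 11.6 and 20.6 CPM in PC5, for a log2 ratio of 0.83 (0.49 to 1.19), and at 25.3 and 69.5 CPM in PC20, for a log2 ratio of 1.46 (1.23 to 1.68). *Pmaip1* gave 1.59 (0.99 to 2.19) in PC20, where it rests on 42 UMIs in the high cells and 59 in the cells with none, and 0.44 (0.18 to 0.72) in PC5. The PC5 value turns on 2 cells with 0 *Cdkn1a* UMIs that held 61 of the 138 *Pmaip1* UMIs of that group, and without them it was 1.28 (0.94 to 1.64), past the limit of 0.5. It was also past it with all UMIs of the same cells (0.86) and with cells split into 3 equal groups by *Cdkn1a* (1.00). In cells without *Mki67* or *Top2a* UMIs, however, the PC5 *Pmaip1* ratio was 0.21, the lowest of the alternatives. *Bax*, which nearly every cell expressed, gave 0.22 (0.16 to 0.28) and 0.45 (0.38 to 0.52). *Aen* gave 0.16 (-0.01 to 0.34), an interval that includes 0, and 0.75 (0.56 to 0.94), and *Zmat3* gave 0.41 (0.27 to 0.55) and 0.84 (0.64 to 1.04). *Trp53* itself gave -0.18 (-0.29 to -0.06) in PC5 and 0.01 (-0.15 to 0.17) in PC20, and the PC5 value turned to 0.037 in cells without *Mki67* or *Top2a* UMIs. *Trp53* RNA was therefore within 0.5 of level in both passages, while the ratios of the 9 targets were above 0 in both, that of *Aen* in PC5 within its counting error.

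Depth and proliferation also moved with the *Cdkn1a* level. Before thinning, the median UMIs per PC5 cell were 22212 at 0, 22050 at 6 or more and 18876 at 11 or more. In PC20 they were 29525 at 0, 40647 at 3 to 5 and 38482 at 6 or more. The share of thinned PC5 cells with an *Mki67* or *Top2a* UMI was 42.7% at 0, 29.2% at 6 or more and 20.1% at 11 or more. In PC20 it was 49.0% at 0, 64.5% at 3 to 5, 57.9% at 6 or more and 50.9% at 11 or more. In cells without such a UMI in the deposited counts, the counts past 0.5 were again 4 in PC5 and 8 in PC20, with medians of 0.37 and 1.22. The share of all expressed genes past 0.5 is not given for these cells, so the equal counts have no yardstick. The part of depth was not tested beyond thinning.

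**Figure D3:**
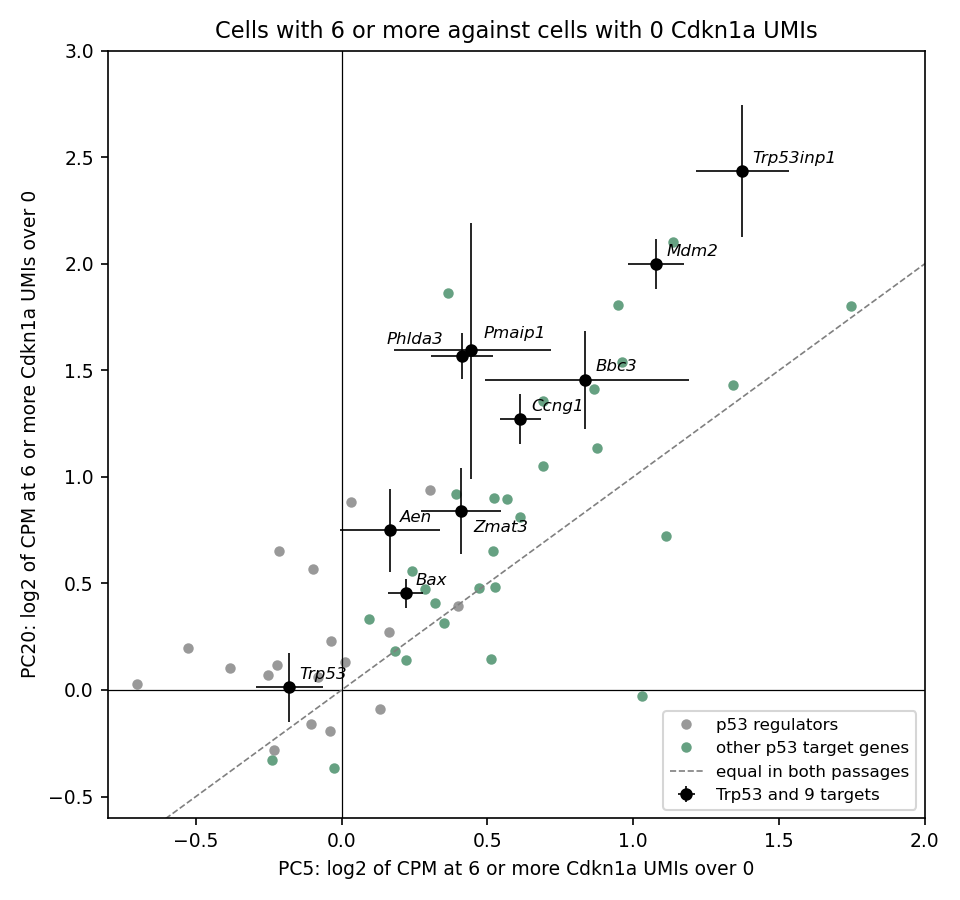
Log2 ratio of CPM between thinned cells with 6 or more *Cdkn1a* UMIs and cells with 0, in PC5 (horizontal axis) and PC20 (vertical axis), for the 10 genes (black, 95% counting intervals), other p53 targets (green) and p53 regulators (grey), with a dashed line where the passages are equal. The 10 genes lie above the line, from *Trp53* (-0.18 and 0.01) to *Trp53inp1* (1.37 and 2.43).

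Because the passages hold *Cdkn1a*-high cells in different shares, the passages were set side by side at the same number of thinned *Cdkn1a* UMIs. Counts this small carry counting error, so cells with the same count can differ in *Cdkn1a* level. The mean count was 4.21 in thinned PC5 cells and 1.92 in thinned PC20 cells, and its part in the ratios was not tested. In cells with 0 *Cdkn1a* UMIs the median log2 ratio of PC5 over PC20 across the 10 genes was 0.52, and in cells with 6 or more it was -0.00. *Mdm2* had a ratio of 0.92 (0.79 to 1.04) in the former and -0.00 (-0.09 to 0.09) in the latter. Its ratio was graded, with 0.50 (0.43 to 0.58) at 1 to 2 UMIs and 0.31 (0.23 to 0.38) at 3 to 5. At 11 or more it was -0.27 (-0.46 to -0.08), on 53 PC20 cells. Of the 272 *Mdm2* UMIs in these PC20 cells, 52 came from 1 cell, and the ratio without that cell was not computed. The *Mdm2* excess in PC5 was thus found in cells with fewer than 6 *Cdkn1a* UMIs. *Ccng1* and *Trp53inp1* kept a PC5 excess at the high level, with 1.50 and 2.40 in cells with none and 0.84 (0.74 to 0.94) and 1.34 (1.14 to 1.56) in cells with 6 or more. *Phlda3* changed sides, from 0.24 (0.12 to 0.36) to -0.91 (-1.01 to -0.82). *Bbc3* was higher in PC20 at both levels, with -1.13 (-1.49 to -0.78) and -1.75 (-1.97 to -1.53), and *Pmaip1* was higher in PC5 at both, with 2.44 (1.99 to 2.90) and 1.29 (0.84 to 1.77). Without the 2 *Pmaip1*-rich PC5 cells the ratios in cells with 0 *Cdkn1a* UMIs were 1.60 (1.09 to 2.11) for *Pmaip1* and 0.75 (0.62 to 0.88) for *Mdm2*. The opposite order of the 2 BH3-only genes was thus also seen among cells grouped by the same *Cdkn1a* counts.

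Ranked against all genes seen in at least 10% of thinned cells, *Mdm2* and *Ccng1* were among the 3 genes most like *Cdkn1a* from cell to cell in both passages, beside *Trp53inp1* in PC5 and *Phlda3* in PC20. Likeness was Spearman's rho across the thinned cells of 1 library, a description over cells that share a library. In PC5, *Mdm2* was first of 7438 genes (rho = 0.263), *Trp53inp1* was next (0.224) and *Ccng1* was at rank 3 (0.210), while *Phlda3* was at rank 24 (0.127). In PC20, *Phlda3* was first of 7289 genes (0.321), followed by *Mdm2* (0.315) and *Ccng1* (0.278), with *Trp53inp1* at rank 12 (0.195). *Phlda3* and *Trp53inp1* thus traded places near the top of the order between the passages. *Trp53inp1* was, however, seen in 52.3% of thinned PC5 cells and only 16.1% of thinned PC20 cells. Its ratio by *Cdkn1a* level was the largest of the 10 in PC20 as well (2.43), and the part of sparsity in its lower rank was not tested. Across all ranked genes the median rho was -0.0023 in PC5 and -0.0015 in PC20, and the middle 90% lay between -0.0498 and 0.0495 in PC5 and between -0.0636 and 0.0630 in PC20.

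**Figure D4:**
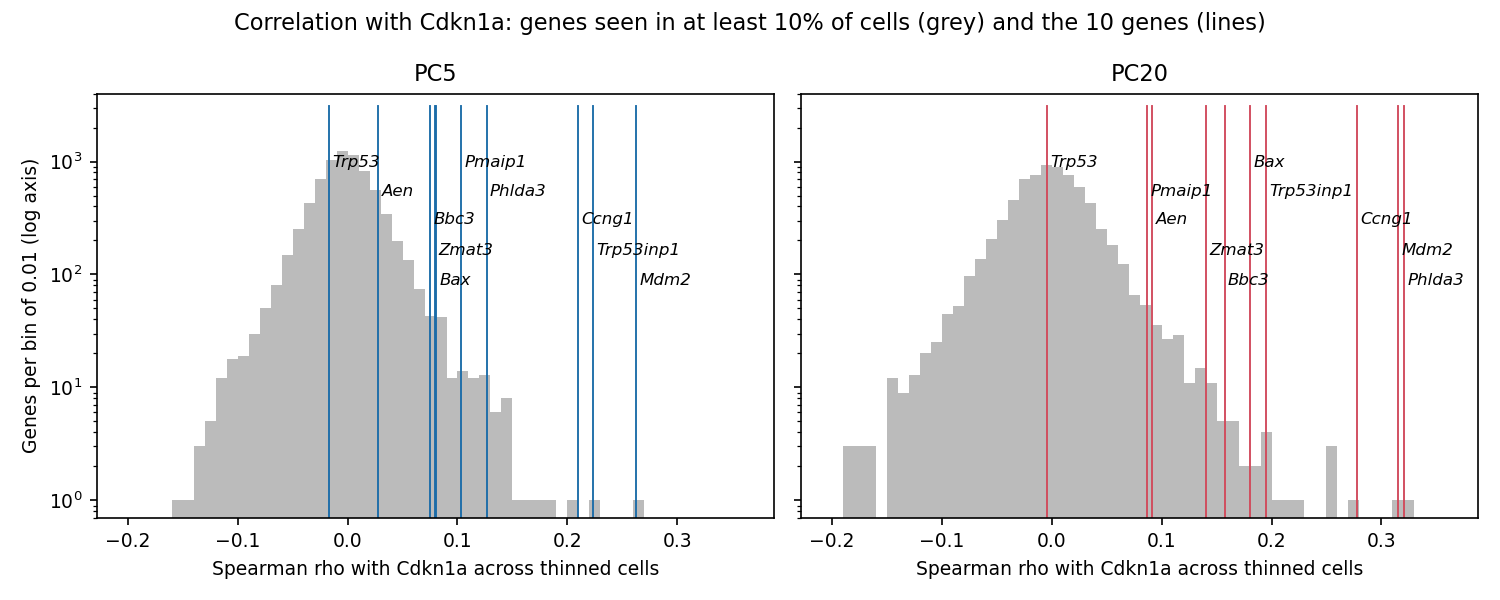
Number of genes (log axis, grey) by Spearman's rho with *Cdkn1a* for all ranked genes in thinned PC5 and PC20 cells, with the values of the 10 genes as vertical lines. *Mdm2*, *Ccng1*, *Trp53inp1* and, in PC20, *Phlda3* lie far to the right of the bulk, and *Trp53* lies within it.

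The other targets and *Trp53* were lower in the same order. *Bax* was at rank 114 in PC5 (0.0803) and 15 in PC20 (0.181), *Zmat3* at 118 (0.0798) and 37 (0.141), and *Bbc3* at 137 (0.0751) and 23 (0.157). *Aen* was at rank 994 in PC5 (0.0281) and 150 in PC20 (0.0916). *Pmaip1* was at rank 55 in PC5 (0.103) and was seen in too few PC20 cells to be ranked there. *Trp53*, with -0.0166 and -0.0041, sat inside the bulk of all genes. At this sparsity the weaker of these values are no finding, and they depend on thinning, since unthinned cells gave a median over the 10 genes of 0.383 and not 0.0917 in PC5, and of 0.510 and not 0.169 in PC20.

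The rest of the 10 genes most like *Cdkn1a* in PC5 were *Thbs2* (0.184), *Cd81* (0.176), *Btg2* (0.161), *Ifitm3* (0.151), *Cox6b2* (0.150), *Itm2b* (0.150) and *Sulf2* (0.149). Of these, only *Btg2* is among the other p53 targets and regulators read below. In PC20 they were *Btg2* (0.259), *Rps27l* (0.257), *Psrc1* (0.254), *Gdf15* (0.228), *Ak1* (0.217), *Ano3* (0.201) and *Susd6* (0.199). *Ano3* and *Susd6* are in neither of those lists. *Btg2*, an antiproliferative gene of the p53 pathway, was among the 10 most alike in both passages. *Rps27l* has a ribosomal paralog and processed copies that can share its reads, so its value is uncertain.

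In PC20, every pair among the 10 genes had a lower rho than *Phlda3* (0.321), *Mdm2* (0.315) and *Ccng1* (0.278) had with *Cdkn1a*. In PC5 this held beside *Mdm2* with *Cdkn1a* (0.263), but not beside *Trp53inp1* (0.224) or *Ccng1* (0.210) with it. Over the 45 pairs the median rho was 0.0415 in PC5 (from -0.00677 to 0.229) and 0.0724 in PC20 (from -0.0399 to 0.225). The closest pairs were *Mdm2* with *Trp53inp1* (0.229), *Mdm2* with *Ccng1* (0.216) and *Ccng1* with *Trp53inp1* (0.202) in PC5. In PC20 they were *Mdm2* with *Phlda3* (0.225), *Mdm2* with *Ccng1* (0.200) and *Ccng1* with *Phlda3* (0.189). *Mdm2* and *Ccng1* were thus together in the top 3 pairs of both passages, joined by *Trp53inp1* in PC5 and by *Phlda3* in PC20. The lower share of PC20 cells with a *Trp53inp1* UMI also bears on its pairs there, and its part was not tested. As a count, *Mdm2* and *Trp53inp1* were both seen in 3869 PC5 cells where 3646 would be given by independence, a ratio of 1.06 (1.04 to 1.09), and in 527 PC20 cells where 453 would, a ratio of 1.16 (1.07 to 1.26). Such an interval lay above 1 for 7 of the 45 pairs in PC5 and 19 in PC20, and below 1 for 0 in both. This ratio cannot exceed 1 over the larger of the 2 shares, so genes seen in nearly all cells can hardly pass. *Ccng1* was seen in 95.1% of thinned PC5 cells and 69.6% of thinned PC20 cells, so the 2 counts are not alike. Pairs of other expressed genes were not counted. Neither the counts nor the median rho over the 45 pairs is therefore a result about the 10 genes as a group. In PC5, *Mdm2* with *Ccng1* gave only 1.01 (0.996 to 1.02) beside its rho of 0.216. The lowest rho in PC20 was that of *Trp53* with *Trp53inp1*.

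Over all ranked genes, the RNA with the highest median rho to the 10 genes was *Cdkn1a* in both passages, at 0.0917 in PC5 and 0.169 in PC20. It was followed in PC5 by *Mdm2* (0.0828), *Siva1* (0.0821), an apoptosis gene that also binds MDM2, and *Trp53inp1* (0.0750), and in PC20 by *Phlda3* (0.131), *Btg2* (0.123) and *Mdm2* (0.118). These medians are small and describe only the order of the genes in these cells.

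**Figure D5:**
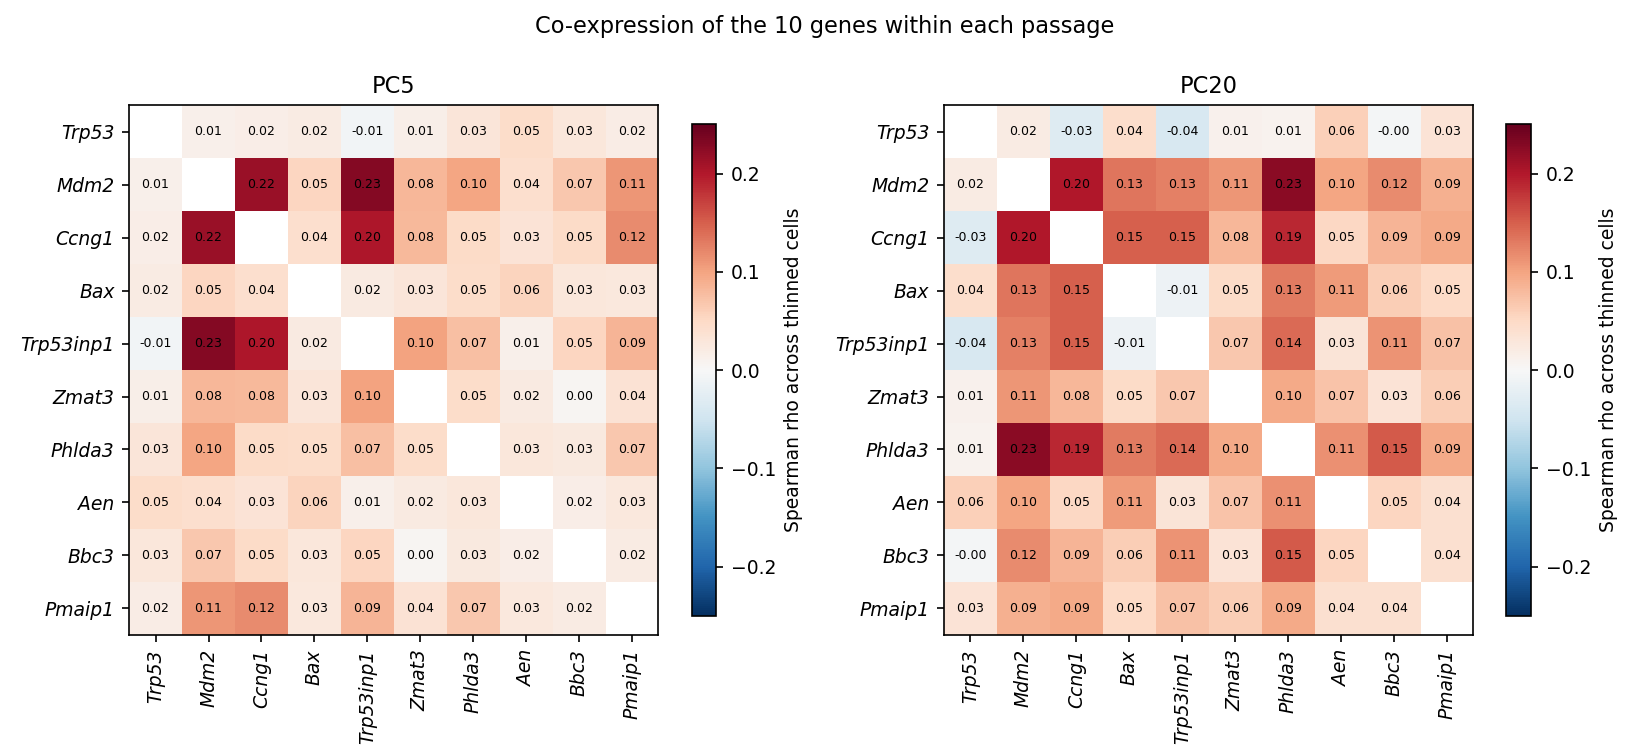
Spearman's rho for each pair of the 10 genes in thinned PC5 and PC20 cells, as a colour grid. The block of *Mdm2*, *Ccng1* and *Trp53inp1* is strongest in PC5 (0.202 to 0.229), the block of *Mdm2*, *Ccng1* and *Phlda3* in PC20 (0.189 to 0.225), and the *Trp53* row is near 0 in both.

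The pairs were also read within each *Cdkn1a* level. The median rho over the 45 pairs was 0.0298 in PC5 cells with 0 *Cdkn1a* UMIs, 0.0291 in those with 1 to 5 and 0.0481 in those with 6 or more, and in PC20 it was 0.0484, 0.0549 and 0.0840. *Mdm2* with *Ccng1* gave 0.134, 0.168 and 0.224 at these levels in PC5 and 0.0819, 0.160 and 0.250 in PC20. The medians are weak, while the *Mdm2* and *Ccng1* pair was positive at every level of both passages. By counts of cells with both genes, with the same upper bound and on fewer cells per level, the interval lay above independence for few of the 45 pairs. These were 0, 3 and 1 pairs at the same levels in PC5 and 2, 2 and 0 in PC20. Pairs of other expressed genes were not counted at these levels either.

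Every thinned cell held a UMI of at least 1 of the 10 genes. *Bax* alone was seen in 98.3% of thinned cells of either passage, so few cells could have held none. The most frequent number of genes seen was 6 in PC5 (27.1% of cells) and 5 in PC20 (24.3%), and all 10 were seen in 35 PC5 cells and 8 PC20 cells. The mean number was 5.33 in PC5 cells with 0 *Cdkn1a* UMIs and 6.78 in those with 11 or more, and 4.44 and 6.49 in PC20.

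*Trp53* differed more with proliferation than with *Cdkn1a*. Thinned cells with an *Mki67* or *Top2a* UMI in the deposited counts held 118 CPM of *Trp53* and the others 89.4 in PC5, for a log2 ratio of 0.40 (0.35 to 0.46), and 111 and 85.2 CPM in PC20, for a log2 ratio of 0.38 (0.28 to 0.48). *Trp53inp1* was lower in such cells in PC5, with 74.9 and 111 CPM and a log2 ratio of -0.56 (-0.62 to -0.50), and gave -0.12 (-0.33 to 0.10) in PC20. *Mdm2* gave -0.13 in PC5 and 0.21 in PC20, and *Cdkn1a* gave -0.29 and 0.21, so these genes had opposite signs in the passages. The deposited UMIs per cell also bear on which cells show a proliferation UMI, and their part in these ratios was not tested.

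Of 35 other p53 target genes, all were expressed, and their median log2 ratio of PC5 over PC20 was 0.22, beside -0.03 for all expressed genes. By more than 1, 10 were higher in PC5 and 7 in PC20, beside 17.9% and 19.1% of all expressed genes, which is no result about the list. The largest difference was that of *Gdf15*, a secreted stress cytokine, with 354 UMIs in PC5 and 62358 in PC20, for a log2 ratio of -7.68. *Ephx1* (-2.93), a detoxifying epoxide hydrolase, *Plk2* (-1.89), a stress-responsive kinase, and *Psrc1* (-1.46), a spindle protein, were also higher in PC20. *Dram1* (3.44), an autophagy gene, *Def6* (2.12), *Ak1* (2.04), an adenylate kinase, *Pidd1* (1.98), which assembles the PIDDosome, *Ei24* (1.92) and *Fbxw7* (1.42), a ubiquitin ligase subunit, were higher in PC5.

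Of 22 regulators of p53, 20 were expressed, with a median of -0.38 beside -0.03 for all expressed genes. Past 1, 2 were higher in PC5 and 8 in PC20, beside 17.9% and 19.1% of all expressed genes. *Cdkn2a*, which encodes the MDM2 inhibitor p19ARF as well as p16INK4a, was counted 124034 times in PC5 and 1 time in PC20, for a log2 ratio of 16.70 (14.22 to 22.00). UMIs were counted per gene, so the RNAs of its 2 products are not told apart. *Ppm1d*, a phosphatase that dampens p53 signalling, gave 1.25. The damage kinases *Chek2* (-1.58), *Atr* (-1.52) and *Chek1* (-1.32), the p53 kinase *Hipk2* (-1.79), the acetyltransferase *Kat5* (-1.12) and the deacetylase *Sirt1* (-1.10) were higher in PC20, as were *Npm1* (-1.28) and *Rpl5* (-1.26), whose processed copies can share reads. *Mdm4*, the partner of MDM2, gave -0.26.

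By *Cdkn1a* level, most of the other targets had ratios above 0, 31 of 33 in PC5 and 27 of 30 in PC20. A log2 ratio past 0.5 in favour of cells with 6 or more *Cdkn1a* UMIs was found for 19 of 33 in PC5, beside 4.02% of all expressed genes, and for 18 of 30 in PC20, beside 9.40%. In the other direction it was found for 0 in both, beside 3.93% and 6.13%, and the medians were 0.52 and 0.77. *Tigar* (-0.24 in PC5 and -0.33 in PC20, with intervals that include 0) and *Rrm2b*, a ribonucleotide reductase subunit (-0.03, and -0.37 with an interval of -0.72 to -0.03), were below 0 in both. *Ddit4l* (1.75), *Pidd1* (1.54) and *Fas* (1.38), a death receptor, were the largest in PC5, and *Btg2* (2.10), *Ak1* (1.86) and *Gtse1* (1.81) in PC20. *Trp53cor1*, the long noncoding RNA next to *Cdkn1a*, gave 1.03 in PC5 and -0.03 (-0.64 to 0.55) in PC20. Of 19 expressed regulators, beside the same shares of all genes, 0 were higher and 2 lower in PC5 (*Atr*, -0.70, and *Usp7*, -0.53), and 4 were higher and 0 lower in PC20 (*Ppm1d*, 0.94, *Mdm4*, 0.88, *Sirt1*, 0.65, and *Ep300*, 0.57), with medians of -0.08 and 0.12. *Cdkn2a* gave 0.39 (0.34 to 0.45) in PC5.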

How the data were processed

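The deposited files list whole UMI counts for each gene in each barcode. The authors made these counts with Cell Ranger 5.0 on mm10, per the submitters' processing notes, called cell barcodes and applied no normalization. Cells were filtered as in the paper's methods. CPM was computed from UMIs summed over cells, and a log2 ratio is that of CPM with no pseudocount. Intervals at the 95% level are exact Poisson for CPM, exact conditional binomial for ratios and Clopper-Pearson for shares. Doublets were not removed. Python 3.11.15, NumPy 2.4.6 and SciPy 1.17.1 were used, and the computation was tested on simulated data.

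The 10 genes, the gene lists and the comparisons were chosen with earlier results of these data known. Named beside the 10 genes and *Cdkn1a* are, from each other list, genes among the 10 with the largest ratio past the limit, *Cdkn2a*, cell markers, and genes among the 10 with the highest rho with *Cdkn1a* or the highest median rho with the 10 genes. *Mdm4* between passages was named after its value was seen. *Cdkn1a* levels were cut at 0, 1 to 2, 3 to 5, 6 to 10 and 11 or more UMIs of thinned cells.

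Of the 31053 gene identifiers, 31011 were found in the GENCODE annotation used for positions. Alternatives were stricter cell filters, cells without the top 5% by UMIs, cells without *Mki67* or *Top2a* UMIs, thinning, means per cell, library sizes without mitochondrial and ribosomal genes, centring, other *Cdkn1a* groups and other correlations. Leaving out the shared barcodes, or 2 PC5 cells rich in *Pmaip1*, was chosen after seeing the data. *Tigar* and *Rrm2b* were also named after their values were seen.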

Additional observations from a re-analysis of the deposited data

Results flagged for a closer look

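Barcodes left out by the filter on genes and mitochondrial share also held RNA of the 10 genes, a signal in data that no comparison above used. In PC5, 679 such barcodes held 1327 UMIs of the 10 genes, a summed level of 1436 CPM. In PC20, 135 barcodes held 202 UMIs, a summed level of 1097 CPM. The sums in the cells kept were 1554 and 1223 CPM. *Mdm2* was at 217 CPM (188 to 250) in the PC5 barcodes left out, beside 218 CPM in the cells kept, and at 277 CPM (206 to 364) in those of PC20, beside 132 CPM. In PC20, *Bax* (266 CPM, 197 to 352, beside 504) and *Phlda3* (97.8 CPM, 57.9 to 155, beside 158) went the other way. In PC5 the interval lay above the level of the cells kept for *Phlda3* and below it for *Ccng1* and *Bax*.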

How the results depend on the processing

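Each passage has 1 library, so the spread between cultures is unknown, and counting intervals do not stand in for it. No paired analysis was possible because each passage has 1 library and so no replicate to pair or leave out. The 20 shared barcodes changed no count of genes. Between passages, the 1 gene past 1 in favour of PC20 became 0 in cells without *Mki67* or *Top2a* UMIs, with the library size taken without mitochondrial and ribosomal genes, and after centring. The median of the 10 genes (0.33) was 0.43 in cells without proliferation UMIs, 0.30 without the top 5% of cells and 0.36 after centring. The median of the other targets (0.22) was 0.16 in cells without proliferation UMIs, 0.10 thinned and 0.15 as means per cell, and that of the regulators (-0.38) was -0.22 and -0.25 in the first and the second of these. The *Trp53* ratio (0.03) reversed to -0.033 without the top 5% of cells, -0.012 thinned and -0.0060 as means per cell. By *Cdkn1a* level, the PC5 *Trp53* ratio (-0.18) reversed to 0.037 in cells without proliferation UMIs. With the high end at 11 or more UMIs, 7 genes passed in PC5 with a median of 0.82, and the PC20 median was 1.63, or 1.08 with cells split into 3 equal groups by *Cdkn1a*. For these settings the share of all expressed genes that passed is not given. Median rho with *Cdkn1a* was 0.383 unthinned and 0.179 as Pearson's *r* in PC5 (0.0917), and 0.510 and 0.273 in PC20 (0.169). Between the 10 genes it was 0.264 and 0.0761 in PC5 (0.0415), and 0.421 and 0.148 in PC20 (0.0724), and the PC5 ratio of cells with both genes over that given by independence (1.01) was 1.04 unthinned. The causes of these shifts were not tested.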

Other observations

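A few cells held far more *Mdm2* or *Pmaip1* than the rest. The 5 highest *Mdm2* values among thinned PC5 cells were 100, 68, 47, 38 and 29 UMIs of 10500, and among PC20 cells 52, 17, 15, 14 and 14. At least 10 *Mdm2* UMIs were found in 133 PC5 cells (1.50%) and 27 PC20 cells (0.603%). The 5 highest *Pmaip1* values in PC5 were 37, 24, 12, 8 and 8 UMIs, and 3 of these 5 cells were also among the 5 highest for *Mdm2*. The PC5 cell with 100 *Mdm2* UMIs held 24 of *Pmaip1*, 21 of *Ccng1*, 4 of *Trp53* and 0 of *Cdkn1a*, and had 27731 UMIs and 4988 genes before thinning. By contrast, the cell with 47 *Mdm2* UMIs held 42 of *Cdkn1a*. The variance of *Mdm2* UMIs over cells was 3.19 times their mean in PC5 and 1.92 times without the highest 1% of cells, and 2.61 and 1.63 times in PC20. For *Pmaip1* it was 2.49 and 1.06 times in PC5, and 1.07 times in PC20 with all cells, so the excess spread of *Pmaip1* in PC5 lay in few cells. For *Trp53* it was 1.16 times in PC5 and 1.20 in PC20. These cells were chosen after their values were seen.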
